A study of Mus musculus with 18 samples.

Results

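The genes described here encode 9 growth factors that macrophages are known to release, namely *Igf1*, *Hbegf*, *Areg*, *Pdgfa*, *Pdgfb*, *Pdgfc*, *Osm*, *Tgfb1* and *Gdf15*. They were chosen by symbol, with earlier results of these data known, and all 9 were found among the 20298 genes of the expression table. RNA was measured in mouse bone marrow monocytes before stimulation (day 0) and in monocyte-derived cells (MDCs) cultured for 3 or 6 days in GM-CSF (20 ng/mL), a cytokine that signals through the transcription factor STAT5. WT cells were compared with DKI cells, which carry knockin mutations of the N-domains of both STAT5A and STAT5B so that STAT5 dimers form but tetramers do not. Each of the 6 groups (WT or DKI at day 0, day 3 or day 6) held 3 libraries, and every culture at days 3 and 6 had received GM-CSF. The labels name liver as the tissue and the study names bone marrow. The 5 hepatocyte markers were listed at 0 in every MDC library and summed to at most 0.0470 RPKM at day 0, where the 7 monocyte markers summed to between 11130 and 17528 RPKM. The age of the mice that gave these cells is not given in the sources used here. The RNA-seq libraries stem from 3 independent experiments. Which library belongs to which experiment, and whether replicates came from separate mice, is not given in the sources used here, so p-values measure the spread between these libraries.

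Growth factors of macrophages act on neighbouring cells during tissue repair. IGF-1 supports growth and survival of many cell types, PDGF-A, PDGF-B and PDGF-C drive mesenchymal cells through the PDGF receptors, and HB-EGF and amphiregulin activate the EGF receptor after they are shed from the cell surface. TGF-β1 restrains inflammation and promotes matrix deposition, oncostatin M signals through gp130, and GDF15 is a TGF-β family member whose gene is switched on in the integrated stress response. In bulk RNA, a change in the share of cells that express a gene and a change in RNA per cell cannot be told apart.

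Levels are given as RPKM (reads per kilobase of gene and per M mapped reads in the library), which can be set side by side between genes. Differences were taken between values of log2(RPKM + 1). Low levels make such a difference smaller than the true log2 change. A gene was called where limma gave a Benjamini-Hochberg adjusted p under 0.05, over all genes of the comparison, and a fold change above 1.5. Genes entered a comparison if the mean RPKM exceeded 2 in at least 1 of its groups.

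The libraries held between 29.5 and 43.2 M mapped reads, as read from genes covered by a single read. Several libraries stood apart. Replicate 1 of both genotypes at day 0 was high in the integrated stress response genes *Trib3*, *Asns* and *Ddit3*, while *Atf3* of the same list was highest in replicate 3. DKI replicate 1 at days 3 and 6 had the highest sum of 6 fibroblast or stroma markers among MDC libraries (10.1 and 33.1 RPKM, against at most 1.86 in the other MDC libraries), and at day 3 it also kept 775 RPKM of the monocyte gene *Ly6c2*, against 11.2 to 73.8 in the other day 3 libraries. On day 6 it was at 158 RPKM of *Ly6c2*, against 5.30 to 13.1 in the others. Neutrophil markers were raised in DKI replicate 1 on both days (401 and 507 RPKM in sum) at day 3 also in replicate 2 of WT (515 RPKM) and DKI (493 RPKM), and at day 6 in WT replicate 1 (165 RPKM, against 2.63 and 10.9 in the other WT libraries). Sums of the dendritic cell, monocyte and basophil or mast cell lists separated the genotypes on both days. That of the B cell list did so on day 6 only. The 5 dendritic cell markers summed to 12.3 to 19.0 RPKM in WT and 2.66 to 5.59 RPKM in DKI on day 3, and to 16.2 to 19.7 and 3.41 to 11 RPKM on day 6. Of these, *Zbtb46* made up most of the WT sum, at 9.73 to 15.7 RPKM in WT and 1.65 to 3.21 RPKM in DKI on day 3. *Flt3*, *Xcr1* and *Clec9a* overlapped between the genotypes on that day. The 7 monocyte markers, mostly through *Lyz2*, summed to 1554 to 3869 RPKM in WT and 8996 to 20975 RPKM in DKI on day 3, and to 2843 to 4186 and 10071 to 14216 RPKM on day 6. Within this list *Ccr2* and *Fcgr1* overlapped between genotypes on both days, and *Ly6c2*, *Csf1r* and *Cd14* on day 6. The sum does not by itself measure monocytes left in the culture. The 6 basophil or mast cell markers summed to 31.6 to 47.9 RPKM in WT and 13.4 to 31.1 RPKM in DKI on day 3. On day 6 these sums were 36.7 to 126 and 19.3 to 28.5 RPKM. The 5 B cell markers summed to 4.44 to 6.95 RPKM in WT and 8.21 to 25.5 RPKM in DKI on day 6. The part of these lists in the genotype differences of the growth factors was not tested. The library names of replicate 1 on days 3 and 6 carry an earlier year than those of replicates 2 and 3, in both genotypes alike.

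STAT5 dimers recognise the motif TTCNNNGAA, and tetramers occupy pairs of such motifs, often imperfect ones. The sequence before a start site is therefore shown for *Igf1*, *Pdgfc* and *Gdf15*, which had the largest ratios of DKI to WT on days 3 and 6. RefSeq promoter entries on GRCm38.p6 were found for 6 of the 9 genes, with 8 start sites in all. In the 250 bases before each start, both strands were searched for the STAT motif TTCNNNGAA, the AP-1-type motif TGANTCA and the ATF4-type motif TGATGNAA. The CRE motif TGACGTCA, the GC box GGGCGG and the E-box CACGTG were searched for as well. The STAT motif was in 0 of the 8 windows and in 7.02% of all 32851 promoter windows of the same length. The AP-1-type motif, searched with any base at its centre, was in 1 of the 8, that of *Igf1* (centre base A), and in 6.75% of all. The ATF4-type motif was in 0 of the 8 and in 3.45% of all, the CRE motif in 1 (*Areg*) and in 1.55% of all, the GC box in 4 (*Areg*, *Tgfb1* and both starts of *Pdgfa*) and in 32.7% of all, and the E-box in 1 (*Gdf15*) and in 6.02% of all. A match is a description of these letters, and no match says only that they are not in this window.

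For *Igf1* (chr10:87858265-87937047) only the stretch around the AP-1-type match is shown (chr10:87861064-87861090, plus strand), with the match in capitals. The window as a whole overlaps annotated exons, and whether the shown stretch lies outside them was not checked. The match begins 37 bases before the RefSeq start inside the gene. For *Pdgfc* (chr3:81036416-81214040) the 250 bases before its start are shown (chr3:81036166-81036415, plus strand). For *Gdf15* (chr8:70629393-70632470) the window of its upstream entry is shown (chr8:70632457-70632706, minus strand), whose last bases lie within the gene's annotated interval. Neither of these windows held a searched motif, so neither has capitals.
Igf1: agctggaactTGAATCActattctgga
Pdgfc: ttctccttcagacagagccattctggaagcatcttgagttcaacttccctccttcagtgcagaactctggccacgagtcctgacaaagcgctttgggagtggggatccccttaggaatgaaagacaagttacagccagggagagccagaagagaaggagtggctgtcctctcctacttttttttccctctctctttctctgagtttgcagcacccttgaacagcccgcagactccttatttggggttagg
Gdf15: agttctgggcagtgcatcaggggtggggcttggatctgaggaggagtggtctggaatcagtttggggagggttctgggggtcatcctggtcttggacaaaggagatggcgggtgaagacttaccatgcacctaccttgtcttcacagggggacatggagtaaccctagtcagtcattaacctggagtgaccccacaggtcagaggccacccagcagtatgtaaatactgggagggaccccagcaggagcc

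*Igf1* was the growth factor with the largest difference between genotypes, higher in DKI MDCs on both days. On day 0 its level was near 0, at 0.0183, 0.0635 and 0.0629 RPKM in WT replicates 1, 2 and 3 and at 0.0724, 0.142 and 0.139 RPKM in DKI. These values rest on 6 to 21 reads in WT and 22 to 48 reads in DKI. The genotypes did not overlap on day 0, but the gene was below the expression limit there and was not tested.

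On day 3 *Igf1* was at 0.377, 1.31 and 0.267 RPKM in WT and at 19.1, 112 and 51.7 RPKM in DKI. On day 6 it was at 2.23, 3.79 and 3.65 RPKM in WT and at 57, 147 and 188 RPKM in DKI. Every DKI library was above every WT library on both days, and DKI replicate 1, the library with stroma markers, was the lowest of the DKI libraries each time. The mean was 60.8 ± 46.9 RPKM in DKI against 0.651 ± 0.573 in WT on day 3 (SD, n = 3), and 131 ± 67.1 against 3.22 ± 0.866 on day 6 (SD, n = 3). The ratios of these means were 93.4 and 40.6.

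*Igf1* was called in DKI against WT on day 3 (log2 difference 4.95, SE 0.62, adjusted p = 0.0112, limma) and on day 6 (4.82, SE 0.45, adjusted p = 0.0077, limma). The share of all tested genes that was called was 7.42% on day 3 and 7.54% on day 6. On day 0 it was 0% (with 44 of 9179 genes at an unadjusted p under 0.05, limma). The call held in all the alternatives run on both days, with adjusted p up to 0.0492 on day 3. Leaving out replicate 1 of both genotypes, within the libraries of the later year, gave 5.49 on day 3 and 5.15 on day 6. In DKI cells *Igf1* rose between day 0 and day 3 (log2 difference 5.46, SE 0.57, adjusted p = 0.0019, limma). In WT cells it was not tested for this step, at a mean of 0.0482 RPKM on day 0 and 0.651 on day 3, without overlap. The genotype difference grew between day 0 and day 3 by 4.86 on the log2 scale (SE 0.69, adjusted p = 0.0048, limma interaction), a comparison in which 2.91% of 10212 genes were called. *Igf1* was the only growth factor of the 9 called there.

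The IGF list held 15 other genes of the pathway, of which 5 were tested on day 3. *Igfbp4*, which encodes a binding protein that restrains IGF-1, rose with genotype on day 3 from 6.04, 4.86 and 5.67 RPKM in WT to 170, 47.8 and 124 RPKM in DKI (log2 difference 3.96, SE 0.45, adjusted p = 0.0094, limma). Day 6 levels were 19.3, 7.25 and 17.5 RPKM in WT and 252, 34.7 and 57.5 RPKM in DKI, a difference that was not called (2.47, adjusted p = 0.0907, limma) but was with the replicate block (0.0456) and in the fit of all 18 libraries (0.0145). DKI replicate 1 had the highest *Igfbp4* level on both days, and without it the day 6 difference was 1.65 (adjusted p = 0.105, limma). *Igf1r*, the IGF-1 receptor gene, was at 2.89, 2.51 and 2.70 RPKM in WT and 5.19, 4.93 and 6.59 RPKM in DKI on day 3 (0.82, SE 0.16, adjusted p = 0.0364, limma, but 0.0663 with the replicate block). On day 6 the genotypes overlapped for *Igf1r*, with DKI higher by 0.17 (adjusted p = 0.535, limma). The median log2 difference of the list on day 3 was 0.26, against -0.11 over all genes tested.

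**Figure D1:**
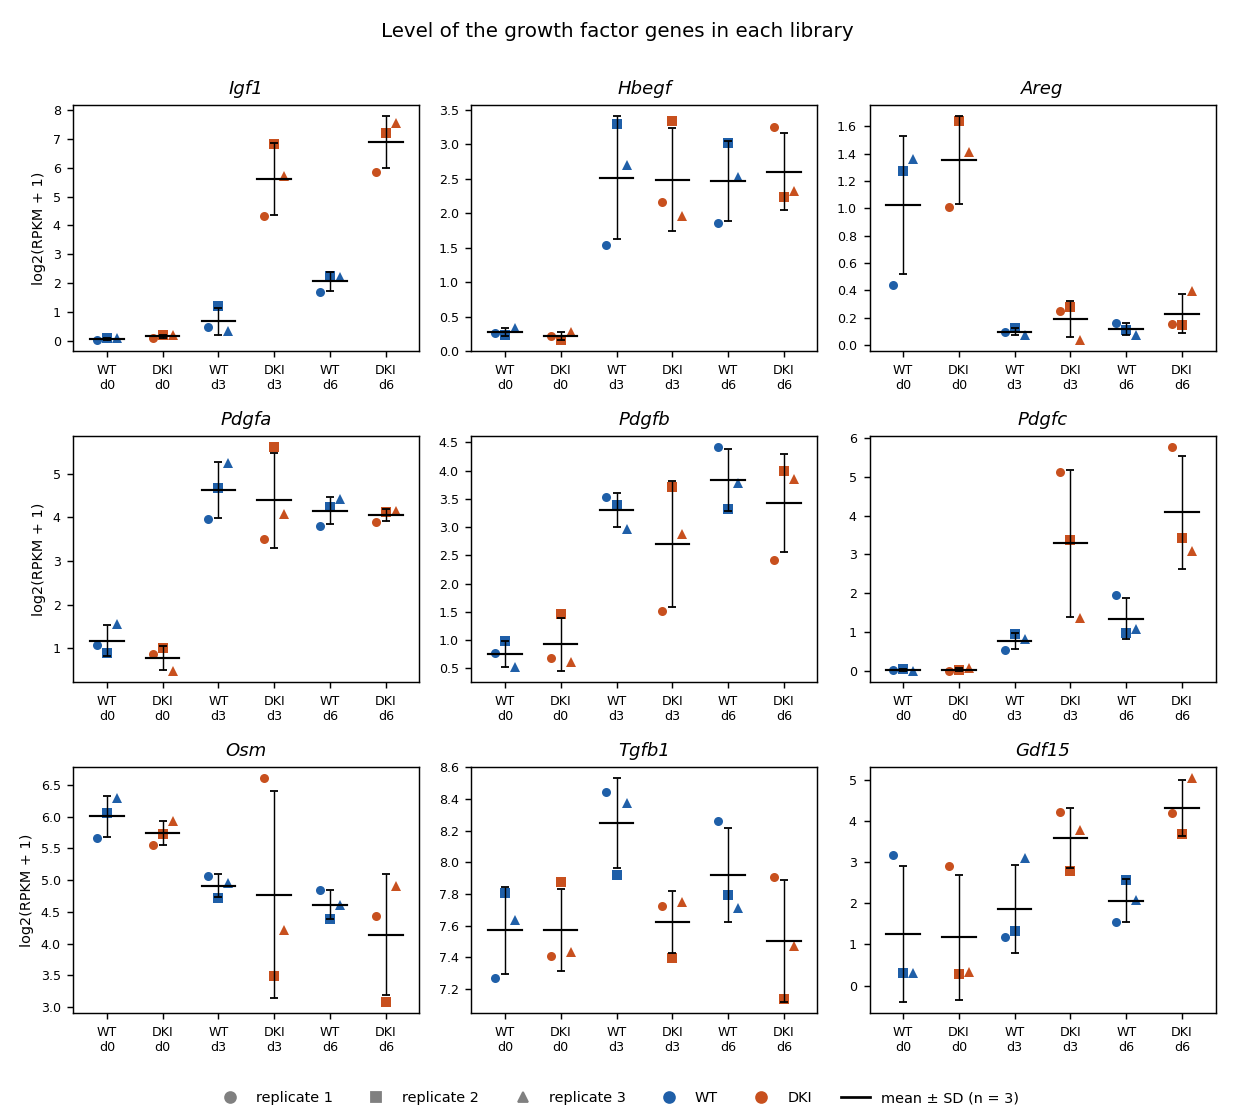
Level of each growth factor gene, as log2(RPKM + 1) on the vertical axis, by genotype and day on the horizontal axis. Symbols are the libraries of replicates 1, 2 and 3, and bars are the mean with its SD (n = 3). All 6 DKI MDC libraries lie above all 6 WT MDC libraries for *Igf1*, while for *Hbegf*, *Pdgfa* and *Pdgfb* the genotypes overlap on both days.

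Of the PDGF ligands, *Pdgfa* and *Pdgfb* rose between day 0 and day 3 in both genotypes and overlapped between genotypes within each day. *Pdgfc* was called higher on day 3 than on day 0 in DKI. In WT it also went up between these days, at levels too low to be tested. It was at higher values in every DKI than in every WT MDC library of the same day, a difference that was not called. *Pdgfa* (chr5:138976014-139000792) encodes the ligand chain that binds PDGF receptor α. It was at 1.12, 0.858 and 1.96 RPKM in WT monocytes and 0.833, 1.0 and 0.399 RPKM in DKI monocytes. On day 3 it was at 14.6, 24.6 and 37.2 RPKM in WT and 10.3, 47.6 and 15.9 RPKM in DKI, and on day 6 at 13.0, 17.8 and 20.5 RPKM in WT and 13.9, 16.4 and 16.6 RPKM in DKI. All MDC libraries were above all day 0 libraries, and within a day the genotypes overlapped.

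*Pdgfa* rose between day 0 and day 3 by 3.45 in WT (SE 0.35, adjusted p = 0.0005, limma) and by 3.61 in DKI (SE 0.52, adjusted p = 0.0045, limma). Such rises are set against many others, since 43.1% of all genes tested were called between day 0 and day 3 in WT and 34.2% in DKI. The genotype difference was -0.24 on day 3 (95% confidence interval -1.65 to 1.17) and -0.10 on day 6 (-0.57 to 0.36), and it was not called on either day. It took both signs over the alternatives, where its day 3 value lay between -0.85 and 0.21 and its day 6 value between -0.28 and 0.04.

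*Pdgfb* (chr15:79995865-80024614) encodes the ligand chain that binds both PDGF receptors. Its level was 0.695, 0.979 and 0.438 RPKM in WT and 0.612, 1.76 and 0.529 RPKM in DKI on day 0. It was 10.6, 9.53 and 6.81 RPKM in WT and 1.84, 12.1 and 6.34 RPKM in DKI on day 3, and 20.3, 9.02 and 12.7 RPKM in WT and 4.35, 14.8 and 13.5 RPKM in DKI on day 6. The lowest MDC value on each day was that of DKI replicate 1. The rise from day 0 to day 3 was called in WT (2.54, SE 0.22, adjusted p = 0.0003, limma) and in DKI (1.78, SE 0.57, adjusted p = 0.0491, limma). The DKI call is lost without any one of replicates 1, 2 and 3 of day 0 and replicates 2 and 3 of day 3, as well as without the expression limit and under quantile normalization, with adjusted p between 0.0519 and 0.129. The genotype difference was -0.60 (-1.89 to 0.69) on day 3 and -0.42 (-1.57 to 0.73) on day 6 (95% confidence intervals) and was not called. Its direction rested on replicate 1. Without DKI replicate 1 the *Pdgfb* difference was -0.01 on day 3 and 0.08 on day 6, and without replicate 1 of both genotypes it was 0.11 and 0.37.

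*Pdgfc* encodes a ligand that is secreted with a CUB domain and acts once that domain is cleaved off. Its day 0 levels rest on 0 to 5 reads and lay between 0 and 0.0482 RPKM. The 3-read floor for this gene was 0.0289 RPKM in the shallowest library, which covers counting error only. On day 3 it was at 0.444, 0.938 and 0.753 RPKM in WT and at 34.2, 9.34 and 1.54 RPKM in DKI. On day 6 it was at 2.86, 0.975 and 1.11 RPKM in WT and at 53.2, 9.67 and 7.42 RPKM in DKI. Every DKI MDC library was above every WT library of its day, and DKI replicate 1, with the stroma markers, had the highest value on both days.

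The difference between genotypes for *Pdgfc* was 2.52 on day 3 (SE 0.88, adjusted p = 0.137, limma), which was not called, and 2.75 on day 6 (SE 0.72, adjusted p = 0.066, limma). With the replicate number as a block the day 6 difference was called (adjusted p = 0.0358, limma). The fit of all 18 libraries called it on both days, and leaving out DKI replicate 3 called it on day 3 (3.49, adjusted p = 0.0343, limma). Without replicate 1 of both genotypes it was not called, at 1.48 on day 3 (adjusted p = 0.296, limma) and 2.22 on day 6 (0.064). The part of the stroma-marker cells in the *Pdgfc* level was not tested. In WT the mean went from 0.0112 RPKM on day 0 to 0.712 on day 3 without overlap, below the expression limit and so not tested. In DKI cells *Pdgfc* was called higher on day 3 than on day 0 (3.26, SE 0.86, adjusted p = 0.028, limma), a call that is lost without replicate 1 of both days, without any one of the day 0 libraries or replicate 2 of day 3, and without the expression limit (adjusted p up to 0.0803). No overlap between genotypes was found for 3 of the 8 tested growth factors on day 3 (*Igf1*, *Pdgfc* and *Tgfb1*) and for 3 of 8 on day 6 (*Igf1*, *Pdgfc* and *Gdf15*). Over all genes, groups without overlap made up 36.3% on day 3 and 37.2% on day 6. The other PDGF genes, *Pdgfd* and 3 receptor genes, were too low to be tested in any comparison, and *Pdgfrb* was at most 1.35 RPKM in MDCs.

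*Hbegf* (chr18:36504927-36515805) encodes a membrane-anchored EGF receptor ligand that is shed by metalloproteases. It lay between 0.117 and 0.259 RPKM on day 0 over both genotypes. On day 3 it was at 1.91, 8.82 and 5.50 RPKM in WT and 3.49, 9.09 and 2.88 RPKM in DKI, and on day 6 at 2.64, 7.09 and 4.77 RPKM in WT and 8.48, 3.70 and 4.0 RPKM in DKI. The rise from day 0 to day 3 was called in WT (2.24, SE 0.43, adjusted p = 0.0054, limma) and in DKI (2.27, SE 0.38, adjusted p = 0.0071, limma). The genotypes overlapped on both days, with differences of -0.03 (-1.33 to 1.28) on day 3 and 0.13 (-0.80 to 1.06) on day 6 (95% confidence intervals). Over the alternatives these ran from -0.51 to 0.37 and from -0.49 to 0.40.

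*Areg* (chr5:91139599-91148432) encodes amphiregulin. It was at 0.357, 1.42 and 1.56 RPKM in WT monocytes and 1.01, 2.11 and 1.67 RPKM in DKI monocytes, from 18 to 109 reads. In MDCs it was between 0.0268 and 0.313 RPKM, from 1 to 13 reads. All MDC libraries were below all day 0 libraries. The mean fell from 1.11 RPKM on day 0 to 0.0705 on day 3 in WT and from 1.59 to 0.143 in DKI. *Areg* never had a group mean above 2 RPKM, so it entered no main test. Without the expression limit its fall from day 0 to day 3 was called in both genotypes.

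The EGF receptor list held 16 further genes, of which 4 were tested on day 3. *Adam17*, the main sheddase of EGF receptor ligands, was at 50.6, 50.1 and 52.5 RPKM in WT and 111, 85.0 and 90.1 RPKM in DKI on day 3 (0.88, SE 0.16, adjusted p = 0.0277, limma, but 0.0579 with the replicate block). Its day 6 levels were 54.6, 48.2 and 34.8 RPKM in WT and 80.9, 67.5 and 45.7 RPKM in DKI (0.47, adjusted p = 0.298, limma). The other tested genes, *Adam10*, *Nrg1* and *Rhbdf2*, had no called difference on either day, and the EGF receptor family genes were too low to be tested. The median log2 difference of the list on day 3 was 0.56, against -0.11 over all genes.

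**Figure D2:**
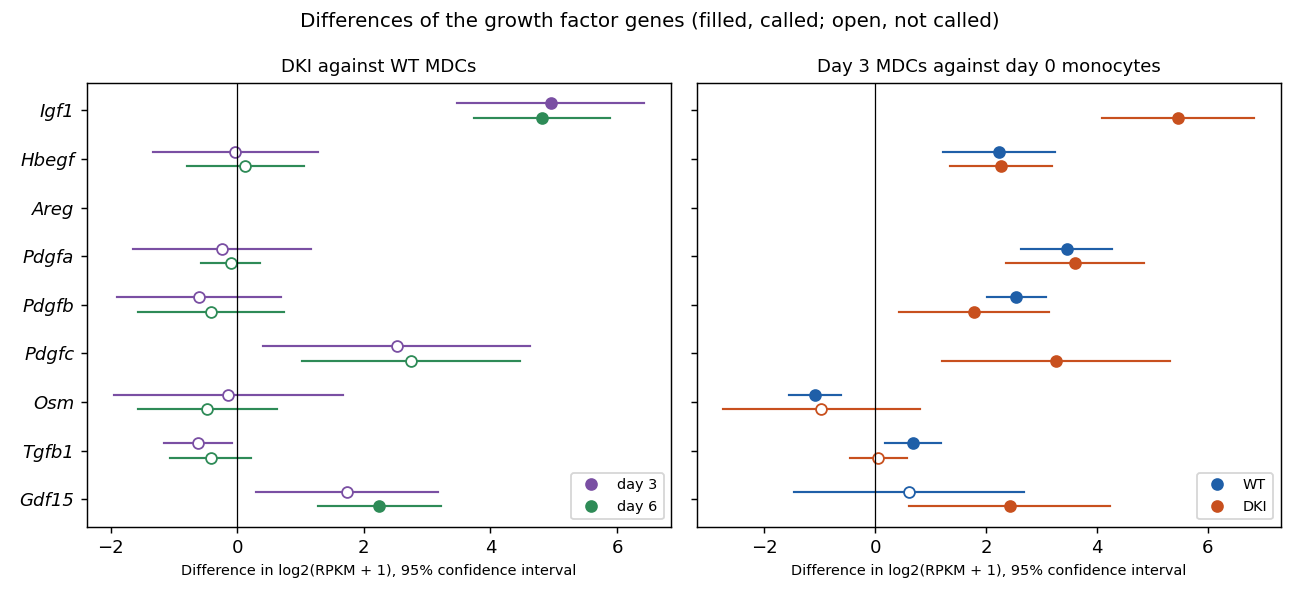
Differences in log2(RPKM + 1) on the horizontal axis, with 95% confidence intervals, for each growth factor gene on the vertical axis. The left panel shows DKI against WT on days 3 and 6 and the right panel day 3 against day 0 in WT and DKI, and filled points were called. Only *Igf1* was called in DKI against WT on both days, and *Hbegf*, *Pdgfa* and *Pdgfb* lie to the right of 0 in both genotypes on the right.

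*Tgfb1* (chr7:25687002-25705077) had the highest mean level of the 9 in every group, at a percentile of 98.5 to 99.1 among all genes. Its level on day 0 was 153, 223 and 198 RPKM in WT and 169, 234 and 172 RPKM in DKI. On day 3 it was 347, 241 and 332 RPKM in WT and 210, 168 and 214 RPKM in DKI, and on day 6 it was 306, 221 and 209 RPKM in WT and 239, 140 and 176 RPKM in DKI. On day 3 every WT library was above every DKI library, and on day 6 the genotypes overlapped.

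The rise of *Tgfb1* in WT between day 0 and day 3 was 0.67 (SE 0.21, adjusted p = 0.0369, limma), a call that is lost without the expression limit, with the replicate block, without replicate 1 of both days, or without replicate 1 or 3 of either day (adjusted p from 0.0635 to 0.156). In DKI the difference between these days was 0.05 (adjusted p = 0.869, limma). The genotype difference was -0.62 (SE 0.22, adjusted p = 0.141, limma) on day 3 and -0.42 (SE 0.26, adjusted p = 0.343, limma) on day 6, and neither was called. The change of the genotype difference from day 0 to day 3 was -0.62 (adjusted p = 0.349, limma interaction).

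Of the 27 other genes of the TGF-β list, 19 were tested on day 3. *Itgb5*, an integrin subunit that takes part in the release of active TGF-β, was higher in DKI on day 3, at 34.0, 30.2 and 39.9 RPKM against 11.5, 5.15 and 10.8 RPKM in WT (1.87, SE 0.29, adjusted p = 0.0197, limma). The day 6 levels were 43.9, 32.8 and 40.7 RPKM in DKI and 20.5, 12.6 and 5.62 RPKM in WT (1.68, adjusted p = 0.0599, limma; 0.0048 in the fit of all 18 libraries). *Skil*, which encodes the SMAD corepressor SnoN, fell with genotype on day 6, from 24.3, 20.0 and 28.3 RPKM in WT to 12.4, 10.9 and 13.7 RPKM in DKI (-0.91, SE 0.17, adjusted p = 0.0342, limma). The *Skil* call is lost under median centring (-0.77, adjusted p = 0.0744, limma), under quantile normalization (0.0710) and without the expression limit (0.0592). On day 3 the genotypes overlapped for *Skil* (-0.07, adjusted p = 0.908, limma). The list median was 0.08 on day 3 and 0.14 on day 6, against -0.11 and -0.17 over all genes.

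*Osm* (chr11:4236785-4241026) encodes oncostatin M, an IL-6 family cytokine. It was at 49.6, 65.6 and 77.9 RPKM in WT and 46.2, 52.1 and 60.1 RPKM in DKI on day 0. On day 3 it was at 32.6, 25.3 and 29.9 RPKM in WT and 96.3, 10.3 and 17.6 RPKM in DKI, and on day 6 at 27.7, 19.9 and 23.3 RPKM in WT and 20.6, 7.46 and 29.0 RPKM in DKI. DKI replicate 1 on day 3, the library that kept *Ly6c2*, had the highest value of all 18 libraries, and the other 2 DKI libraries of that day were below every WT library.

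Between day 0 and day 3 *Osm* fell by 1.09 on the log2 scale in WT (SE 0.20, adjusted p = 0.0045, limma), with the call but not the difference lost in the fit of all 18 libraries (adjusted p = 0.136). In DKI the difference was -0.97 (SE 0.74, adjusted p = 0.335, limma), and it was called without DKI replicate 1 of day 3 (-1.89, adjusted p = 0.005, limma). The genotype difference was -0.14 (-1.95 to 1.67) on day 3 and -0.47 (-1.57 to 0.63) on day 6 (95% confidence intervals). The direction rested on single DKI libraries, since the *Osm* difference on day 3 was -1.06 without replicate 1 (adjusted p = 0.0622, limma), 0.50 without replicate 2 and 0.14 without replicate 3, and on day 6 it was 0.06 without replicate 2. The list of its relatives and receptors held 9 genes, of which 5 were tested on day 3, and none was called between genotypes on either day. *Il6ra*, the IL-6 receptor gene, was at 15.6, 16.1 and 10.7 RPKM in WT and 26.9, 18.8 and 25.7 RPKM in DKI on day 3 (0.72, adjusted p = 0.102, limma), and it did not overlap on day 6 either (0.60, adjusted p = 0.107, limma). *Lif*, which encodes another cytokine of the family, was too low to be tested, at 1.19, 0.579 and 0.985 RPKM in WT and 0.157, 0.0629 and 0.119 RPKM in DKI on day 3. Both genes are named after their values were seen.

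*Gdf15* was higher in DKI MDCs, with a call on day 6. Its day 0 level was 7.99 RPKM in WT replicate 1 and 6.55 RPKM in DKI replicate 1, and between 0.214 and 0.250 RPKM in the other 4 libraries, from 8 to 11 reads. On day 3 it was at 1.26, 1.52 and 7.52 RPKM in WT and at 17.5, 5.93 and 12.8 RPKM in DKI. On day 6 it was at 1.92, 4.96 and 3.20 RPKM in WT and at 17.4, 11.8 and 31.8 RPKM in DKI. The genotypes overlapped on day 3, where WT replicate 3 was above DKI replicate 2, and did not overlap on day 6.

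The mean was 20.3 ± 10.3 RPKM in DKI against 3.36 ± 1.53 in WT on day 6 (SD, n = 3), a ratio of 6.05. The difference was 1.73 on day 3 (SE 0.60, adjusted p = 0.135, limma), not called, and 2.24 on day 6 (SE 0.40, adjusted p = 0.0303, limma; 0.0491 with the replicate block). The day 6 call is lost without any one of 4 libraries (WT replicates 1 and 3, DKI replicates 1 and 3), without replicate 1 of both genotypes, without the expression limit and in a fit of all 18 libraries, with adjusted p between 0.0657 and 0.183. Between day 0 and day 3 *Gdf15* was called higher in DKI (2.42, SE 0.76, adjusted p = 0.0476, limma), a call that is lost without any one of replicates 2 and 3 of day 0 and of the 3 day 3 libraries, and in 3 other settings (adjusted p up to 0.141). In WT the difference was 0.61 (adjusted p = 0.595, limma), and 1.91 without replicate 1 of both days (adjusted p = 0.0516, limma).

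The level of *Gdf15* moved with integrated stress response genes in some libraries and not in others. *Trib3*, *Asns* and *Ddit3* are named here after their values were seen, as known targets of that response. *Trib3* was at 93.7 and 101 RPKM in replicate 1 of WT and DKI on day 0, against at most 1.58 RPKM in the other day 0 libraries. It was at 57.2 RPKM in DKI replicate 3 on day 6, the library with the highest *Gdf15* level, against at most 8.16 RPKM in the other MDC libraries. *Asns* was at 110 and 119 RPKM in the same day 0 libraries and at 59.1 RPKM in that DKI library. *Ddit3* was at 81.1, 18.7 and 10.8 RPKM in DKI on day 3 and 46.1, 15.3 and 87.6 RPKM on day 6, against 7.65 to 16.8 RPKM in WT MDCs. DKI replicate 1, with *Gdf15* at 17.5 and 17.4 RPKM, was thus high in *Ddit3*, but its *Asns* level was the lowest of the MDC libraries of its day, at 8.59 RPKM on day 3 and 5.99 RPKM on day 6. *Atf3*, also named after its values were seen, was at 580 and 562 RPKM in replicate 3 of WT and DKI on day 0, where *Gdf15* was low, and at 216 and 203 RPKM in replicate 1.

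The 5 DKI MDC libraries other than replicate 3 of day 6, replicate 1 included, had *Gdf15* between 5.93 and 17.5 RPKM while *Trib3* was at 2.11 to 8.16 RPKM. Without DKI replicate 3 on day 6 the *Gdf15* difference was 1.88 (adjusted p = 0.0777, limma). The part of the stress genes in the difference was not tested. Of the 12 genes of the list, 8 were tested on day 3 and 1 was called. *Sesn2*, a stress-induced regulator of mTORC1, was lower in DKI on day 3, at 15.2, 11.8 and 14.9 RPKM against 60.2, 39.3 and 39.3 RPKM in WT (-1.64, SE 0.21, adjusted p = 0.0126, limma, but 0.110 in the fit of all 18 libraries). Day 6 values of *Sesn2* were 21.7, 16.2 and 28.0 RPKM in DKI and 56.9, 34.2 and 51.7 RPKM in WT (-1.08, adjusted p = 0.061, and 0.0358 with the replicate block). *Gfral*, the GDF15 receptor gene, was listed at 0 in 17 of 18 libraries.

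**Figure D3:**
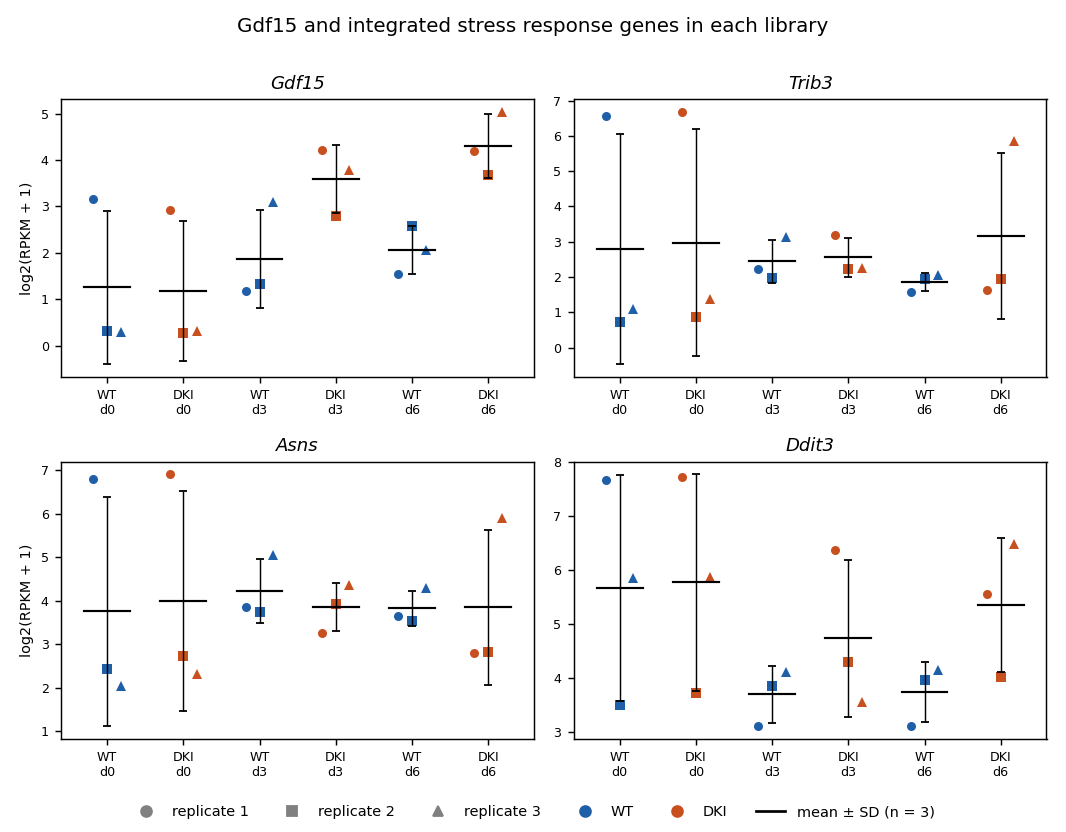
Level of *Gdf15* and of 3 integrated stress response genes, as log2(RPKM + 1), in each library by genotype and day. Symbols are replicates 1, 2 and 3, and bars are the mean with its SD (n = 3). Replicate 1 on day 0 and DKI replicate 3 on day 6 stand above the rest of their groups for *Trib3* and *Asns*, while *Gdf15* is higher in DKI than in WT on day 6 in all 3 DKI libraries.

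A list of 29 other growth factor genes, of which 28 were in the table, gave further calls. *Hgf*, which encodes hepatocyte growth factor, was called on both days. It was at 1.31, 2.02 and 0.925 RPKM in WT and 16.8, 29.1 and 30.4 RPKM in DKI on day 3, and at 2.13, 3.14 and 2.03 RPKM in WT and 16.9, 28.4 and 37.3 RPKM in DKI on day 6. Day 0 levels lay between 5.6 and 11.3 RPKM. *Hgf* in monocytes was thus between the levels of WT and DKI MDCs. Between day 0 and day 3 it fell by 1.81 in WT (adjusted p = 0.0029, limma) and rose by 1.62 in DKI (adjusted p = 0.0063, limma).

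The genotype difference of *Hgf* was 3.43 on day 3 (SE 0.28, adjusted p = 0.0046, limma) and 3.00 on day 6 (SE 0.30, adjusted p = 0.008, limma). *Gas6*, a ligand of the MerTK and AXL receptors, was at 4.92, 2.36 and 2.10 RPKM in WT and 89.9, 15.8 and 39.0 RPKM in DKI on day 3 (3.32, SE 0.61, adjusted p = 0.029, limma). On day 6 *Gas6* was at 5.78, 2.25 and 0.688 RPKM in WT and 111, 11 and 13.3 RPKM in DKI (3.01, SE 0.94, adjusted p = 0.0953, limma; 0.0372 with the replicate block and 0.0126 in the fit of all 18 libraries). DKI replicate 1 had the highest *Gas6* level on both days, and without it the difference was 2.72 on day 3 and 1.98 on day 6 (adjusted p = 0.0298 and 0.113, limma). *Gdf3*, a TGF-β family ligand, was at 0.0538, 0.0126 and 1.42 RPKM in WT and 2.12, 2.34 and 8.36 RPKM in DKI on day 3, a difference that was not called (1.75, SE 0.55, adjusted p = 0.110, limma) but was with the replicate block (0.0296) and in the fit of all 18 libraries (0.0371). On day 6 *Gdf3* was at 0.108, 0.0552 and 1.03 RPKM in WT and 3.12, 3.09 and 8.30 RPKM in DKI (2.01, SE 0.43, adjusted p = 0.0429, limma).

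*Pgf*, which encodes placental growth factor, a VEGF family ligand, went the other way. It was at 34.0, 22.7 and 30.0 RPKM in WT and 15, 9.08 and 6.51 RPKM in DKI on day 3 (-1.47, SE 0.30, adjusted p = 0.0399, limma). Day 6 values of *Pgf* were 48.0, 47.7 and 14.7 RPKM in WT and 6.13, 17.4 and 10.1 RPKM in DKI (-1.56, adjusted p = 0.121, limma; 0.0485 in the fit of all 18 libraries). The day 3 call of *Pgf* is lost in that fit (adjusted p = 0.0684), without the expression limit, under median centring and under quantile normalization. WT was above DKI without overlap on day 3, and WT replicate 3 was below DKI replicate 2 on day 6.

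Across the 7 lists of 112 pathway genes, 50 were tested on day 3, with 6 higher and 2 lower in DKI, and 51 on day 6, with 2 higher and 1 lower. With the replicate block the counts were 10 on day 3 and 8 on day 6, where 5.66% and 7.31% of all genes were called. On day 0, 51 were tested and none was called. Without the block, the share called on day 3 and on day 6 can be set against 7.42% and 7.54% of all genes. The calls of *Hgf* on both days and of *Igfbp4* and *Sesn2* on day 3 held when any one library was left out. The day 3 calls of *Adam17* and *Igf1r* were lost without any one library except DKI replicate 1, that of *Pgf* also without any one except DKI replicate 1, that of *Gas6* without any WT library or DKI replicate 3, and that of *Itgb5* without replicate 3 of either genotype. The day 6 call of *Gdf3* was lost without any one library except DKI replicate 2, and that of *Skil* without any one except WT replicate 2. Over all alternatives the adjusted p (limma) reached 0.152 for *Adam17*, 0.115 for *Igf1r*, 0.139 for *Pgf*, 0.104 for *Gas6*, 0.059 for *Itgb5*, 0.198 for *Gdf3* and 0.205 for *Skil*.

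**Figure D4:**
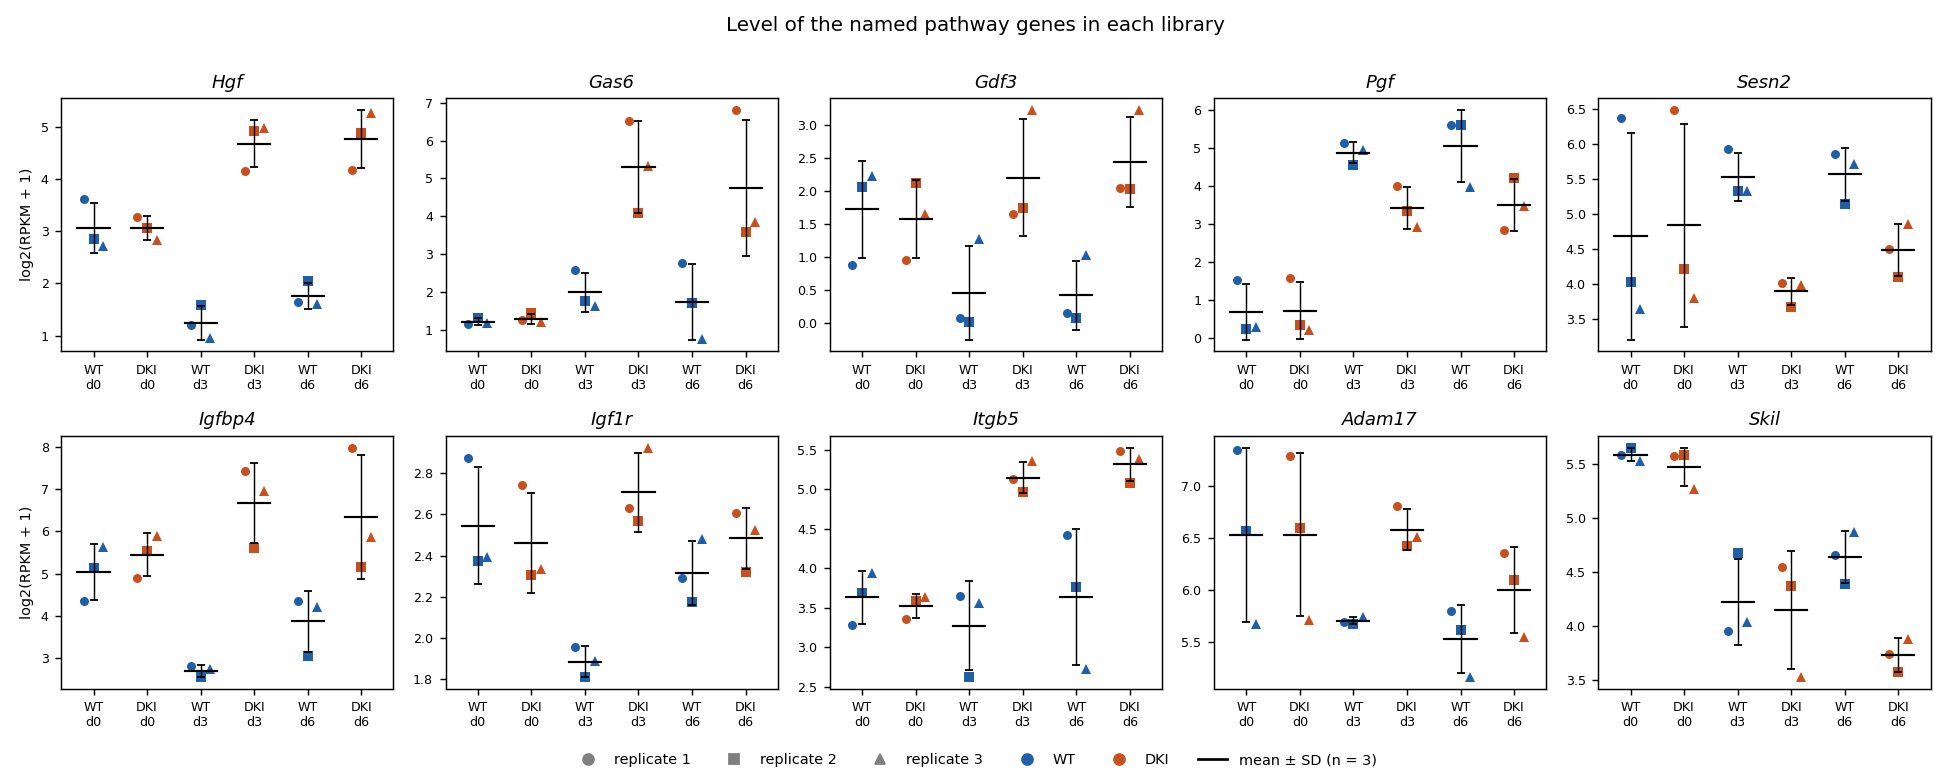
Level of the named pathway genes, as log2(RPKM + 1), in each library by genotype and day. Symbols are replicates 1, 2 and 3, and bars are the mean with its SD (n = 3). All 3 DKI libraries are above all 3 WT libraries for *Hgf* and *Gas6* on both days, and below them for *Sesn2*. For *Pgf* they are below them on day 3.

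By mean level per length, the order in WT monocytes was *Tgfb1* (192 RPKM), *Osm* (64.4), *Gdf15* (2.82), *Pdgfa* (1.31), *Areg* (1.11), *Pdgfb* (0.704), *Hbegf* (0.209), *Igf1* (0.0482) and *Pdgfc* (0.0112). The library ranges overlapped between neighbours from *Gdf15* to *Pdgfb* and between *Igf1* and *Pdgfc*, and not between the others. In DKI MDCs on day 6 the order was *Tgfb1* (185 RPKM), *Igf1* (131), *Pdgfc* (23.4), *Gdf15* (20.3), *Osm* (19.0), *Pdgfa* (15.7), *Pdgfb* (10.9), *Hbegf* (5.39) and *Areg* (0.177). The ranges of *Tgfb1* and *Igf1* overlapped in that group, as did those of each pair of neighbours from *Pdgfc* to *Hbegf*. In WT MDCs on day 6 *Igf1* (3.22 RPKM) stood between *Gdf15* (3.36) and *Pdgfc* (1.65), with overlapping ranges. Between day 3 and day 6 none of the growth factors was called in either genotype. Of all genes, 0% were called in each genotype for that step, with 722 of 9613 genes in WT and 93 of 9540 in DKI at an unadjusted p under 0.05 (limma), and 0% for the change of the genotype difference, with 89 of 9985.

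Across all 9 growth factors, 1 of 8 tested was called in DKI against WT on day 3 and 2 of 8 on day 6 (3 with the replicate block), and none of the 3 tested on day 0. The shares of all genes called were 7.42% on day 3 and 7.54% on day 6. The median log2 difference of those tested was -0.08 on day 3 and 0.01 on day 6. Between day 0 and day 3, 5 of 6 tested were called in WT, 4 higher and 1 lower, and 6 of 8 in DKI, all higher. Over all genes, 43.1% were called in WT and 34.2% in DKI. In both genotypes *Hbegf*, *Pdgfa* and *Pdgfb* had day 0 means under 2 RPKM, as had *Igf1* and *Pdgfc* in DKI. These entered the test only through their day 3 level, while *Areg*, which fell, did not enter. The directions and counts for this step were thus partly set by the expression limit.

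The genes whose levels followed each growth factor most closely were found over the 18 libraries among 10417 genes by Pearson's r of log2(RPKM + 1). The libraries share day and genotype, so these values are descriptions. For *Igf1* they were *C77080* (r = 0.97), *Pmp22* (0.96) and *Cd84* (0.96). For *Pdgfc* they were *Folr2* (0.97), *Hyal1* (0.95) and *Znfx1* (0.95), of which *Folr2* encodes a folate receptor of macrophages and had a mean of 48.5 RPKM in DKI against 0.276 in WT on day 3. For *Gdf15* they were *Mcfd2* (0.94), *Tnfrsf26* (0.93) and *Slc38a7* (0.93).

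The genes closest to *Pdgfa* were *Anxa4* (0.97), *Mmp12* (0.96), the macrophage elastase gene, and *Myo1e* (0.96). Those closest to *Pdgfb* were *Soga1* (0.96), *Ppp1r3e* (0.96) and *Ltc4s* (0.96), and those closest to *Hbegf* were *Bcl2l1* (0.95), *Commd3* (0.95) and *Pgpep1* (0.94). For *Osm* they were the immediate early gene *Junb* (0.89), *Zfp36* (0.88) and *Mapk7* (0.86), and for *Tgfb1* they were *Ppp1r18* (0.89), *Rab43* (0.86) and *Rpl17-ps10* (0.85). Among the growth factors themselves, *Hbegf* and *Pdgfa* were closest (r = 0.94), followed by *Pdgfa* and *Pdgfb* (0.87) and by *Igf1* and *Pdgfc* (0.80).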

How the data were processed

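RNA-seq of WT and DKI monocytes and MDCs was deposited as 1 table. Per the labels and methods, single-end reads had been mapped by the authors with Subread (mm10) and assigned to RefSeq genes with featureCounts, and RPKM values were deposited for 18 libraries (6 groups of 3). Versions and strand handling were not given in the sources used here. Groups came from the sample titles. RPKM is not a count, so no count test was run.

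Values were analysed as log2(RPKM + 1) with limma 3.58.1 (lmFit, eBayes with trend) in R 4.3.3, in genes whose mean RPKM passed 2 in any group, separately for each comparison of 6 libraries (12 for genotype by time). A call needed an adjusted p (Benjamini-Hochberg) below 0.05 together with a 1.5-fold change. The test was checked on simulated data. Depth was solved from values of 1 read in short receptor genes, and reads behind each growth factor by solving for 1 gene length: all 162 values were then whole within 0.001 reads. Figures were made with Python 3.11.15 and matplotlib 3.10.9. The RefSeq table gave symbols for 20082 of 20298 identifiers.

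The growth factors and pathway lists were chosen with earlier results of these data known. Pathway genes were named if called on days 3 and 6, or if among the 3 called genes with the largest change per list on each day, and 3 genes of like pattern were named per growth factor.

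Deviations of same-numbered libraries from their group means correlated between genotypes (r 0.16 to 0.87) and between days 3 and 6 (lowest r 0.13). Between day 0 and day 3 they did not (lowest r -0.20). Same-numbered libraries may therefore be pairs between genotypes and between days 3 and 6. The main fits held no block, so their SE, confidence intervals and calls ignore such a pairing. The replicate block is the alternative that takes it into account. Alternatives were a pseudocount of 0.1, no expression limit, median centring, quantile normalization, a replicate block, a fit of all 18 libraries and leaving out each library. Leaving out replicate 1 of every group, and a block within each day for genotype by time, were added after seeing the data.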

Additional observations from a re-analysis of the deposited data

Results flagged for a closer look

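The change of *Igf1* between day 0 monocytes and day 3 MDCs differed between the genotypes by a direct test of the difference. No culture without GM-CSF was compared. The log2 difference between days was larger in DKI than in WT by 4.86 (SE 0.69, adjusted p = 0.0048, limma interaction over 10212 genes). The 3 DKI libraries went from at most 0.142 RPKM on day 0 to at least 19.1 RPKM on day 3, and the 3 WT libraries from at most 0.0635 RPKM to at most 1.31 RPKM. The value was between 4.26 and 5.71 over the alternatives, with adjusted p up to 0.0179.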

How the results depend on the processing

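In DKI against WT on day 3, 2 growth factors were called in the fit of all 18 libraries, which added *Pdgfc*, and 1 to 2 when libraries were left out. The day 6 number was 1 without the expression limit and 1 to 2 when libraries were left out. Between day 0 and day 3 it was 3 to 6 in DKI when libraries were left out, and 1 to 2 for genotype by time, where leaving out DKI replicate 3 of day 3 added *Pdgfc*. The causes were not tested. In WT, the fit of all 18 libraries lost the call of *Osm* (adjusted p = 0.136) at the same difference of -1.09. Without the expression limit, *Areg* and *Pdgfc* were also called in WT and *Tgfb1* was not, and in DKI *Areg* was also called and *Pdgfb*, *Pdgfc* and *Gdf15* were not.

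Over 1203 values of growth factors and named pathway genes under alternatives, 1100 kept their call or absence of one, 87 lost a call and 16 gained one. None of the called values changed sign, while 88 of the 1100, called under neither setting, did. The replicate block gained *Pdgfc* on day 6 and lost *Tgfb1* between day 0 and day 3 in WT, where the numbers do not pair the libraries, and it changed no other call of the 9 growth factors.

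The number of all genes called moved more. It was 723 on day 3 and ran from 358 (no expression limit) to 1359 (all 18 libraries), and from 197 (without WT replicate 1) to 715 when libraries were left out. On day 6 it was 742, from 187 to 1573, and from 38 (without replicate 1) to 984. For day 3 against day 0 in DKI it was 3394, and 1976 without DKI replicate 2 of day 0. For genotype by time from day 0 to day 3 it was 297, from 229 to 1040 (replicate block within each day), and 125 without DKI replicate 2 of day 0. For day 0 genotypes and day 6 against day 3 in WT, the fit of all 18 libraries called 6 and 16 genes where the main count was 0. Depth limited *Areg* in MDCs, where a value rests on 1 to 13 reads, and *Pdgfc* on day 0.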
